A study of Mus musculus with 6 samples.

Results

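Runx1, Runx1t1 and the partners of the core-binding factor were followed in AE9a leukemia cells of 2 marrow regions. The 10 genes Runx1, Runx2, Runx3, Runx1t1, Cbfb, Cbfa2t2, Cbfa2t3, Lmo2, Lyl1 and Erg were chosen by name, as the rows of the count table that carry these symbols, out of 54532 genes. All 10 had counts in every library and all 10 passed the filter on low counts that left 13352 genes for testing. The study set leukemia cells from endosteal bone marrow (EBM) beside those from central bone marrow (CBM), with 3 RNA-seq libraries per region. In both regions the cells came from C57BL/6 mice with leukemia started by c-Kit+ stem and progenitor cells that had been infected with an AE9a retrovirus carrying GFP and passed on through serial transplantation, of which the third generation was used. CBM cells were flushed from femurs and tibias, whereas EBM cells were released from the flushed bones by collagenase I at 37 °C. Region and digestion therefore cannot be told apart. Cells of both regions were kept in IMDM medium with fetal serum around cell sorting. Nothing read here states that the 3 libraries of a region came from separate mice, so p-values measure only the spread between these libraries.

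RUNX proteins bind DNA through the Runt domain, and CBFβ, the product of Cbfb, binds that domain and strengthens the contact without touching DNA itself. Runx1 is needed for the emergence of blood stem cells, and the t(8;21) translocation of human acute myeloid leukemia joins the Runt domain of RUNX1 (AML1) to RUNX1T1 (ETO), a co-repressor that recruits NCoR and histone deacetylases. AE9a is a shortened, spliced form of this fusion that lacks the last part of ETO. Lmo2, Lyl1 and Erg act in stem and progenitor cells as parts of the transcription factor complexes that meet Runx1 at shared enhancers.

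The transgene joins parts of RUNX1 and RUNX1T1, so its reads may lie on Runx1 and Runx1t1, and the counts of these 2 genes cannot be divided between the transgene and the mouse's own genes. Between the members themselves, reads are kept apart by sequence. Of the 50-base words in the annotated transcripts of each member, 0 occurred in another member. Against other genes the share of such words also present elsewhere was highest for Cbfa2t2 (7.20%) and Runx2 (5.66%), and it was 0% for Runx1t1, Cbfb, Lmo2, Lyl1 and Erg. The longest exact runs shared within the families are shown where they lie in coding sequence, because they mark how far the paralogs remain identical, in capitals throughout since every base is shared. The Runx1 and Runx3 run has 38 bases and lies at chr16:92695530-92695567 on the minus strand and chr4:135152973-135153010 on the plus strand of GRCm38. The Runx1 and Runx2 run has 26 bases, at chr16:92613715-92613740 (minus) and chr17:44639781-44639806 (minus). The Runx2 and Runx3 run also has 26 bases, at chr17:44735264-44735289 (minus) and chr4:135153000-135153025 (plus), and starts inside the stretch of Runx3 that is also shared with Runx1. The Runx1t1 and Cbfa2t3 run has 29 bases, at chr4:13865837-13865865 (plus) and chr8:122635113-122635141 (minus), and the Cbfa2t2 and Cbfa2t3 run has 19, at chr2:154515881-154515899 (plus) and chr8:122638956-122638974 (minus). For Runx1t1 and Cbfa2t2 the longest run, 23 bases, is not within coding sequence and is not shown.
Runx1 and Runx3: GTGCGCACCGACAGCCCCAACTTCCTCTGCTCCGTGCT
Runx1 and Runx2: TCCCCACCGTGGTCCTATGACCAGTC
Runx2 and Runx3: TGCTCCGTGCTGCCCTCGCACTGGCG
Runx1t1 and Cbfa2t3: AACTGCATCATGGACATGGTGGAGAAGAC
Cbfa2t2 and Cbfa2t3: CCCAGTACCTGGCCCAGCA

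A second shared stretch lies at the upstream starts of the Runx genes. RefSeq promoter windows for GRCm38.p6, with 250 bases before and 50 after a start, matched 8 of the 10 members and gave 13 windows. The RUNX letters TGTGGT, read on both strands, were in 3 of the 13 windows, against 16.8% of all 32851 windows. These 3 windows belonged to the upstream starts of Runx1, Runx2 and Runx3, and each held the letters as a pair, ACCACANNACCACA on the strand of the gene. The pair was searched for after the windows had been read. On either strand it was in 7 of the 32851 windows (0.0213%), and these belonged to 7 of 27025 genes, of which 3 were the Runx genes. One of the other genes, Gm16225, has an exon in the Runx3 window. The sites are shown with 8 bases on either side and the repeats in capitals. Distances run from the RefSeq start to the first base of the repeats, whereas coordinates are those of the 30 bases shown. In GENCODE M21 the genes Runx1 and Runx2 reach further upstream, to chr16:92826149 and chr17:44814797. The Runx1 site starts 28 bases after its start, in annotated untranslated exon, at chr16:92826025-92826054 (minus). The Runx2 site starts 23 bases after its start, at chr17:44814583-44814612 (minus), in an exon that is untranslated in some transcripts and coding in others. The Runx3 site lies 134 bases before its start, at chr4:135120503-135120532 (plus), outside annotated exons.
Runx1: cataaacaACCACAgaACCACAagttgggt
Runx2: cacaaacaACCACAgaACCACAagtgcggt
Runx3: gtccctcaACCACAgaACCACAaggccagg
All 3 sites share 18 bases without a difference, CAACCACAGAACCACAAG. The downstream windows of Runx1 and Runx3 held no TGTGGT on either strand. GATAA was in 2 of the 13 windows (25.4% of all windows), CAGGAAG of the ETS factors in 2 (13.3%) and the E-box CAGCTG in 1 (16.3%). These matches are letters in a window, and no binding was measured.

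No member passed the test for a difference between the regions. In edgeR (quasi-likelihood F-test, p adjusted after Benjamini and Hochberg over all genes), 0 of the 10 members passed an adjusted p of 0.05, where 0% of the 13352 genes passed. At an unadjusted p under 0.05 the count was 0 of 10, against 7.91% of all genes, and DESeq2 called 0 of the 10, where it called 1.39% of its 12619 genes. The values of the regions overlapped for each of the 10, whereas 15.1% of all genes had regions that did not overlap. In EBM, 4 members had the higher fitted level and 6 the lower, with a median log2 fold change of -0.05 beside 0.00 over all genes tested. In bulk libraries, fewer cells of a type and less RNA per cell cannot be told apart.

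Runx1, the RUNX factor of blood stem cells, varied more between libraries of a region than between the regions. In CPM (counts scaled to library size, by TMM factors), the values in CBM were 722, 330.3 and 482 CPM in replicates 1, 2 and 3, and those in EBM were 616, 506 and 371 CPM. CBM replicate 1 was highest and CBM replicate 2 lowest, so that the CBM libraries enclosed all 3 EBM libraries. Mean levels of 512 ± 198 CPM (CBM) and 497 ± 123 CPM (EBM) were obtained (SD, n = 3 libraries a region). The log2 fold change of EBM over CBM was -0.04 with a standard error of 0.31 (edgeR adjusted p = 0.993) and a 95% interval from -0.77 to 0.69, which spans folds from 0.586 to 1.61. The sign of this value was not stable, since it became 0.29 without CBM replicate 1 and 0.12 without EBM replicate 3.

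Runx3, which acts mainly in lymphocytes and neurons, ran between 16.6 and 54.9 CPM. CBM held 54.9, 19.1 and 32.6 CPM and EBM held 49.0, 36.6 and 16.6 CPM. As for Runx1, the highest library was CBM replicate 1, followed by EBM replicate 1, and both regions had a low library. Its log2 fold change was -0.06 ± 0.48 (SE; edgeR adjusted p = 0.994), turning to 0.40 without CBM replicate 1 and to 0.26 without EBM replicate 3. T and NK cell markers, where Runx3 is also known to act, summed over 11 genes to 13.7, 26.7 and 17.7 CPM in CBM and to 15.2, 18.04 and 24.1 CPM in EBM, highest in the libraries where Runx3 was lowest. Lck, with 40, 223 and 147 counts in CBM and 62, 103 and 195 in EBM, and Cd247, with 166 to 244 counts, held most of this sum, and Cd3e had at most 1 count in any library. Their part in the level of Runx3 was not tested.

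Runx2, the factor that commits cells to the osteoblast lineage, had the lowest mean level per length of the 10 members. Erg was below it in CBM replicate 2 and EBM replicate 3. CBM had 7.80, 11.8 and 8.24 CPM, and EBM had 6.62, 8.13 and 9.06 CPM. The highest library was CBM replicate 2, which was the lowest for Runx1. The difference was -0.23 ± 0.23 on the log2 scale (SE; edgeR adjusted p = 0.903), and it was -0.01 without CBM replicate 2. Markers of osteoblasts and stroma, 11 genes, summed to at most 1.45 CPM in any library, 10 of the 11 had at most 10 counts in every library, 4 were at 0 in all 6 and the osteoblast factor Sp7 was one of these 4.

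Cbfb, the shared partner of all RUNX proteins, followed Runx1 from library to library. It stood at 130.1, 58.0 and 95.2 CPM in CBM and at 125, 95.2 and 70.7 CPM in EBM. The order of the 6 libraries was the same as for Runx1, though CBM replicate 3 and EBM replicate 2 were nearly equal for Cbfb. The regions differed by 0.04 ± 0.32 on the log2 scale (SE; edgeR adjusted p = 0.993), with a 95% interval from -0.72 to 0.81. Without CBM replicate 2 the value was -0.21 and without EBM replicate 1 it was -0.19.

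**Figure D1:**
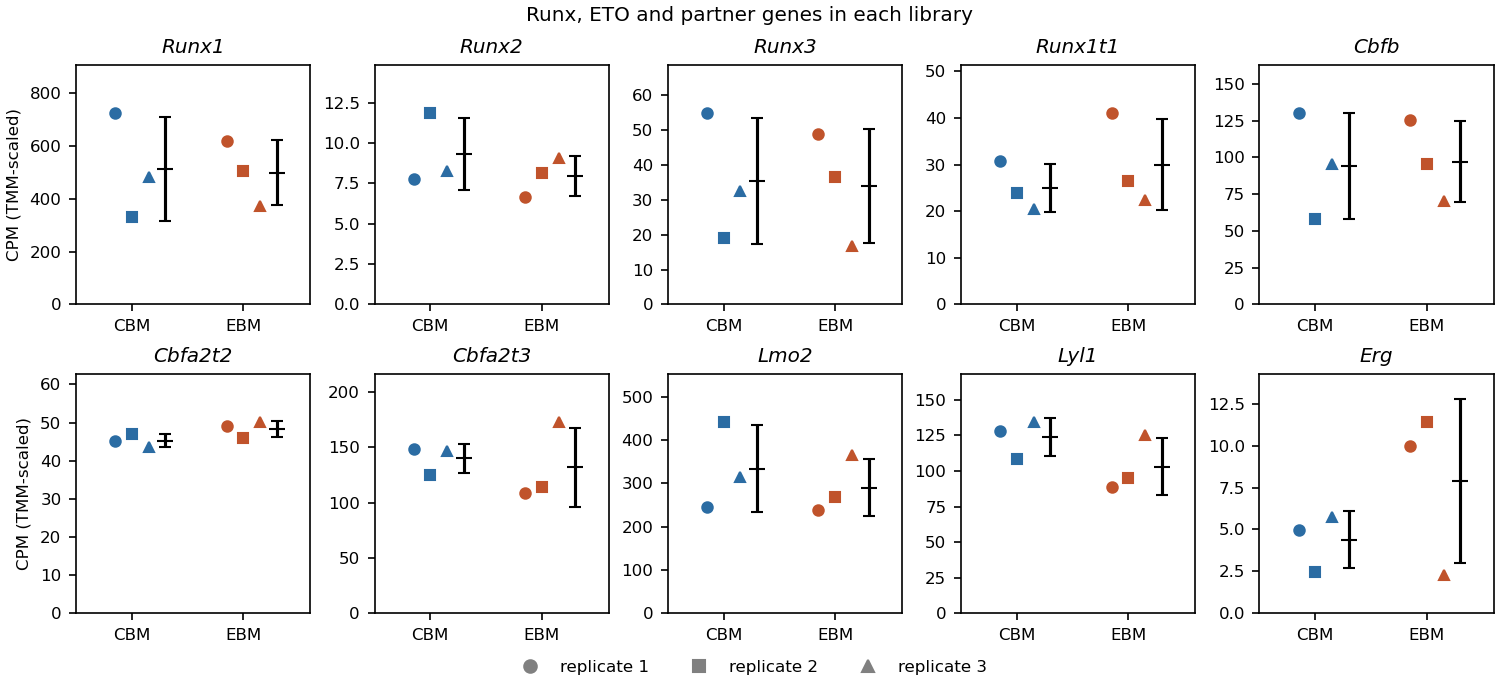
CPM (TMM-scaled) of each of the 10 members in each library, with circles, squares and triangles for replicates 1, 2 and 3 and the mean ± SD of 3 libraries in black beside them. Every y axis starts at 0, and in each panel the CBM and EBM values overlap.

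Runx1t1, the ETO gene, had the highest value of its 6 libraries in EBM replicate 1. From CBM came 30.7, 23.9 and 20.5 CPM and from EBM 41.0, 26.5 and 22.5 CPM. The CBM mean of 25.0 ± 5.16 CPM (SD, n = 3) and an EBM mean 1.20 times as high (SD 9.75 CPM, n = 3) gave a log2 fold change of 0.26 ± 0.26 (SE; edgeR adjusted p = 0.901), with a 95% interval from -0.35 to 0.88. Without EBM replicate 1 it was -0.03, so that this library set the sign.

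The ETO family members Cbfa2t2 and Cbfa2t3 are co-repressors of the same kind, and Cbfa2t3 (ETO2) is known to sit on the TAL1 and LMO2 complex in erythroid cells. Cbfa2t2 was the steadiest member, with 45.2, 47.1 and 43.5 CPM in CBM and 49.0, 46.0 and 50.2 CPM in EBM. Its range over the libraries, 0.21 on the log2 scale, was at the 4.21 percentile of all genes tested. A shift of 0.10 ± 0.09 (SE; edgeR adjusted p = 0.9005) between regions had the narrowest 95% interval of the 10 members, from -0.12 to 0.32. Cbfa2t3 stood at 148, 125 and 147 CPM in CBM and at 109, 114 and 173 CPM in EBM, and the highest library was EBM replicate 3. Its log2 fold change was -0.09 ± 0.19 (SE; edgeR adjusted p = 0.980) and turned to 0.03 without EBM replicate 1 and to 0.00 without EBM replicate 2.

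Lmo2, the LIM-only bridging protein, and Lyl1, a helix-loop-helix partner of it, were the 2 highest members by mean level per exon length, though Runx1 was above Lyl1 in EBM replicate 1 and with the longest transcript as length. Lmo2 had 245, 442 and 314 CPM in CBM and 238, 268 and 365 CPM in EBM. Its libraries ran in exactly the order of Runx2, with CBM replicate 2 first and EBM replicate 1 last. The regions differed by -0.20 ± 0.25 on the log2 scale (SE; edgeR adjusted p = 0.935), and by 0.06 without CBM replicate 2. Lyl1 had 128, 109 and 135 CPM in CBM and 88.7, 94.8 and 126 CPM in EBM, where the third library reached into the CBM range. Lyl1 had the smallest adjusted p of the members, at -0.26 ± 0.16 (SE; edgeR adjusted p = 0.748), and a 95% interval from -0.64 to 0.11. With a library left out it ran from -0.17 (without EBM replicate 1) to -0.44 (without EBM replicate 3).

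Erg, an ETS factor of stem cells and endothelium, had the largest fitted difference and the widest spread. CBM libraries held 4.95, 2.47 and 5.76 CPM, and EBM libraries held 9.99, 11.4 and 2.31 CPM. EBM replicates 1 and 2 lay above all of CBM and EBM replicate 3 below all of it. The log2 fold change of 0.85 ± 0.59 (SE; edgeR adjusted p = 0.807) had a 95% interval from -0.56 to 2.26, which is folds from 0.680 to 4.77. With a library left out in turn it ran from 0.49 (without EBM replicate 2) to 1.27 (without EBM replicate 3). Erg rested on 36 to 205 counts per library. Of the 8 endothelial markers, 5 had at most 10 counts in every library, with Emcn at 0 in all 6 and Cdh5 at no more than 2 counts, and their sum, nearly all of it Egfl7, was 91.1 to 100.2 CPM in CBM and 79.2 to 91.8 CPM in EBM. Megakaryocyte markers summed to 24.0 to 48.9 CPM in CBM and 14.5 to 37.7 CPM in EBM, with EBM replicate 3 lowest as for Erg, and their part in the result was not tested.

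**Figure D2:**
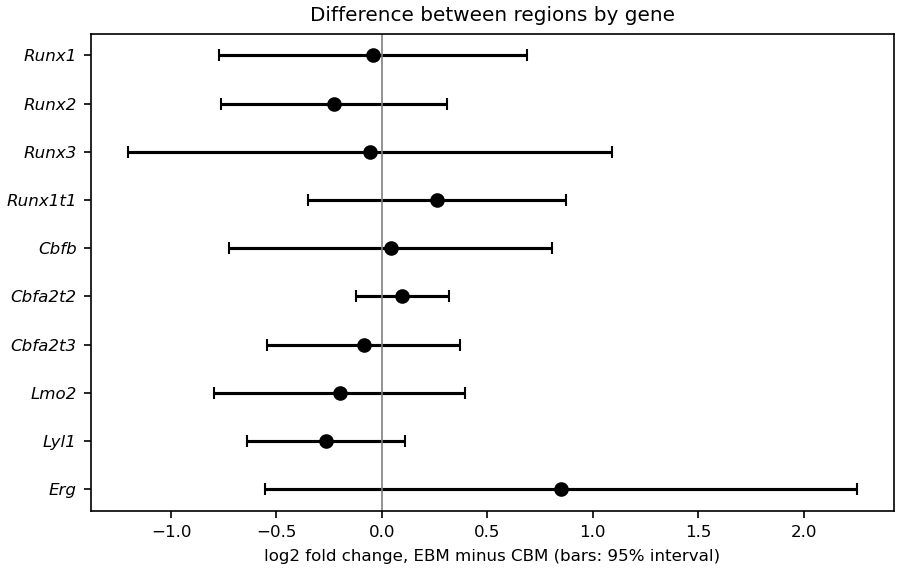
Log2 fold change of EBM over CBM for each member (points) with its 95% interval (bars), from edgeR. All 10 intervals include 0, and that of Cbfa2t2 is the narrowest and that of Erg the widest.

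The spread of the members ran across the libraries of both regions. The median range of a member was 0.94 on the log2 scale against 0.63 over all genes tested, and 8 of the 10 members ranged over more than the median gene. The Runx1 range of 1.13 was at the 76.1 percentile, that of Cbfb at 77.3, that of Runx3 at 89.6 and that of Erg at 94.7. Runx1, Runx3 and Cbfb were high in CBM replicate 1 and EBM replicate 1 and low in CBM replicate 2 and EBM replicate 3, while Lmo2 and Runx2 were the other way round. The first principal component of log2 CPM over all genes, 53.0% of the variance, separated the same libraries, with scores of -38.5 and -36.4 for the replicates 1 of CBM and EBM and 42.9 and 46.0 for CBM replicate 2 and EBM replicate 3. With this component as a covariate, an alternative chosen after seeing the data, the log2 fold changes of Runx1, Runx2, Runx3, Runx1t1 and Cbfb were -0.07, -0.18, -0.19, 0.19 and -0.0033, those of Cbfa2t2, Cbfa2t3, Lmo2, Lyl1 and Erg were 0.10, -0.09, -0.12, -0.26 and 0.54, and again no member passed an adjusted p of 0.05 in edgeR.

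Markers of other blood lineages moved with the same libraries. The 7 mast cell and basophil markers summed to 1428, 669 and 1089 CPM in CBM 1, 2 and 3 and to 1288, 1288 and 795 CPM in EBM, so they were low where Runx1 was low. Most of this sum was Ms4a2. Of the 7 genes, 4 had their lowest levels in CBM replicate 2 and EBM replicate 3, 1 had its highest levels there and 2 did neither. Cpa3, a mast cell protease, had 3938, 71 and 892 counts in CBM and 3800, 3229 and 81 counts in EBM. The 9 erythroid markers summed to 2548, 8089 and 3551 CPM in CBM and to 3084, 4402 and 6307 CPM in EBM, and 7 of the 9 had their highest levels in CBM replicate 2 and EBM replicate 3, the libraries where Lmo2 was highest. The other two were the beta globins Hbb-bs, at 1117, 1434 and 808 CPM in CBM and 1279, 1338 and 807 CPM in EBM, and Hbb-bt, which in EBM was lowest in replicate 3 (73.1 CPM). Hba-a1, an adult alpha globin, had 11226 to 57956 counts in CBM and 14642 to 32333 in EBM, and none of the 9 erythroid markers was at 0. Neutrophil markers, 8 genes, summed to 3.37 to 228 CPM in CBM and to 35.1 to 163 CPM in EBM and followed neither order. Kit, the receptor by which the founding cells were selected, had between 3046 and 4513 counts in each library, Myb had 4851 to 6200 and Flt3 at most 16. Cd34, a stem and progenitor marker, had 270, 22 and 98 counts in CBM and 297, 188 and 19 in EBM. Cd48 had 784, 330 and 631 in CBM and 588, 519 and 254 in EBM. Both were low in CBM replicate 2 and EBM replicate 3, as Runx1 was. Of the 8 leukemic progenitor markers, 3 were lowest in those libraries, 1 was highest there and 4 did neither. Their sum was 553 to 600 CPM in CBM and 544 to 566 CPM in EBM. The part of these lineages in the levels of the members was not tested.

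**Figure D3:**
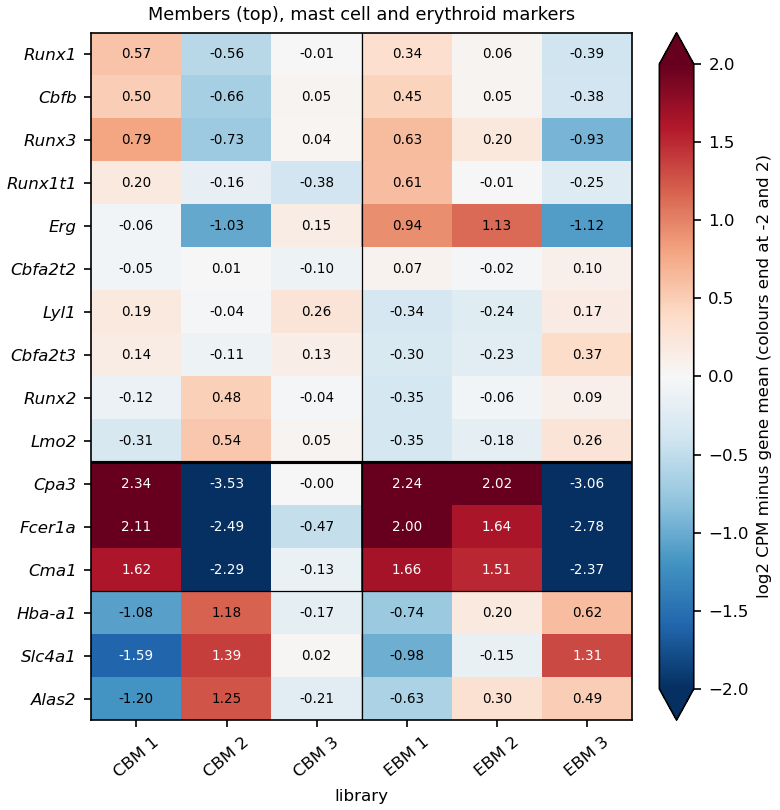
Log2 CPM of the 10 members (upper block), 3 mast cell markers and 3 erythroid markers in each library, after subtraction of the mean over the 6 libraries. Runx1, Cbfb and Runx3 take the signs of Cpa3, Fcer1a and Cma1 in CBM 1 and 2 and EBM 1, 2 and 3, whereas Lmo2 is high with Hba-a1, Slc4a1 and Alas2 in CBM 2 and EBM 3. The beta globins, which do not follow this order, are not drawn. Of all 7 mast cell and basophil markers, 4 were lowest in CBM 2 and EBM 3, 1 was highest there and 2 did neither.

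Among the 45 pairs of members, Runx1 and Cbfb kept the steadiest ratio. Over the 6 libraries Runx1 ranged 2.19-fold and Cbfb 2.24-fold, but their ratio by level per length (RPKM, reads scaled to gene length and library size) ran only from 1.42 to 1.65, a 1.16-fold range. In CBM the ratio was 1.61, 1.65 and 1.47 and in EBM it was 1.42, 1.54 and 1.52, which overlap. Cbfa2t3 and Lyl1 followed with a 1.26-fold range and Runx2 and Lmo2 with 1.28-fold, while Lmo2 and Erg were widest at 7.60-fold. The summed RPKM of the 3 Runx genes over that of Cbfb was between 1.71 and 1.96. As the pairs were ranked after their values were seen, these ranges are a description. They were taken among the members only. Over all genes tested, Cbfb was not among the 3 genes nearest to Runx1 in pattern, which are treated below.

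Runx1t1 over Runx1 is the ratio that transgene reads would bear on from both sides. It was 0.0642, 0.109 and 0.0644 in CBM and 0.101, 0.0792 and 0.0917 in EBM, with means of 0.0793 ± 0.0260 and 0.0905 ± 0.0108 (SD, n = 3). CBM replicate 2 was above all EBM libraries and the other CBM libraries were below them, so the regions overlapped. Lmo2 over Runx1 was 1.88 in CBM replicate 1 and 7.42 in CBM replicate 2, and 2.15 to 5.46 in EBM.

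**Figure D4:**
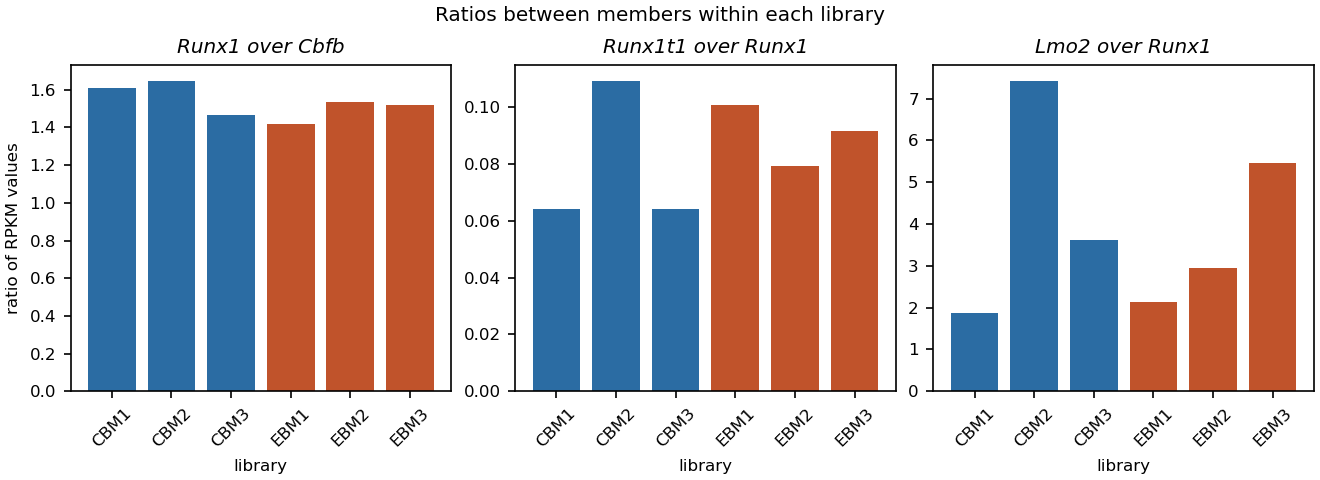
Ratios of RPKM in each library, CBM in blue and EBM in orange, for Runx1 over Cbfb, Runx1t1 over Runx1 and Lmo2 over Runx1. The first stays between 1.42 and 1.65, while the third ranges from 1.88 to 7.42.

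By level per length, with the deposited gene length, the mean RPKM over the 6 libraries was 144 for Lmo2, 63.0 for Lyl1, 42.0 for Runx1, 27.5 for Cbfb, 16.3 for Cbfa2t3, 6.96 for Runx3, 5.42 for Cbfa2t2, 3.46 for Runx1t1, 1.77 for Erg and 0.975 for Runx2. Neighbours in this order were compared within libraries by an exact two-sided sign-flip permutation test. In 5 of the 9 pairs the higher gene was higher in all 6 libraries, at 0.03125, the smallest p that this exact test allows. These pairs were Lmo2 and Lyl1, Runx1 and Cbfb, Cbfa2t3 and Runx3, Cbfa2t2 and Runx1t1, and Runx1t1 and Erg. After Benjamini-Hochberg adjustment of the exact permutation p over the 9 pairs, each had an adjusted p of 0.0563, above 0.05. With so high a smallest p, the adjustment left little room for any pair to pass. The order itself was taken from the same values. Lyl1 and Runx1, and Cbfb and Cbfa2t3, kept their order in 5 of 6 libraries (exact permutation p = 0.0625, adjusted 0.0804). Runx3 and Cbfa2t2 (exact permutation p = 0.500) and Erg and Runx2 (exact permutation p = 0.250) kept it in 4 of 6. With the longest transcript as length, Runx1 stood above Lyl1.

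**Figure D5:**
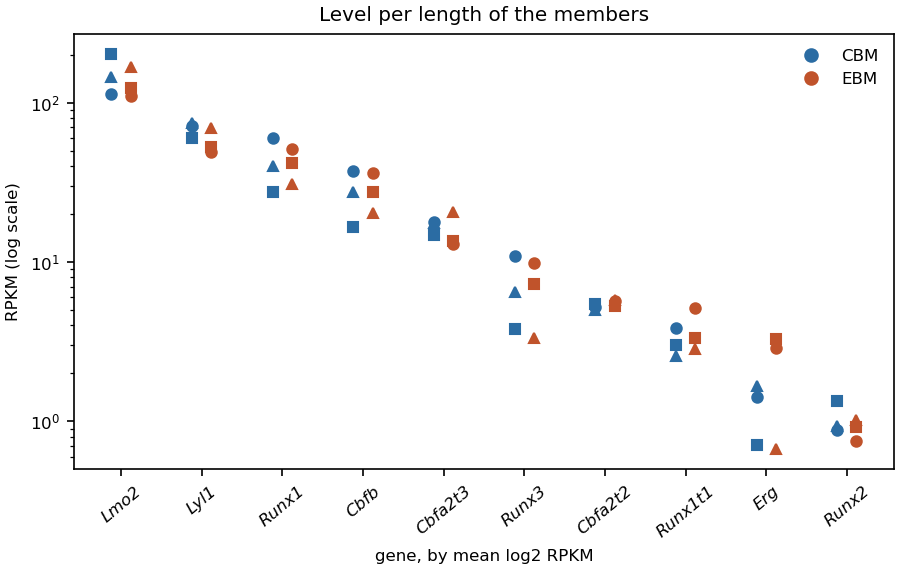
RPKM of each member in each library on a log axis, ordered by mean log2 RPKM, with CBM in blue, EBM in orange and circles, squares and triangles for replicates 1, 2 and 3. Lmo2 lies highest, at 109.9 to 204 RPKM, and Runx2 lowest by mean, at 0.750 to 1.34 RPKM.

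Within the Runx family, Runx1 held 82.9% to 87.6% of the summed RPKM in each library, Runx3 9.46% to 15.9% and Runx2 1.21% to 4.11%. The Runx sum was 71.9 RPKM in CBM replicate 1 and 32.6 in CBM replicate 2, with the EBM libraries between them. Within the ETO family, Cbfa2t3 led with 54.6% to 70.6%, followed by Cbfa2t2 with 19.5% to 23.9% and Runx1t1 with 9.64% to 21.6%. The ETO sum was steadier, with 22.3 to 29.3 RPKM. These shares and sums include any transgene reads on Runx1 and Runx1t1, which cannot be divided from those of the mouse's own genes.

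The genes most like Runx1 in pattern were taken as those with the smallest root mean square distance of log2 CPM, centred over the 6 libraries. Among them were Snx9, a sorting nexin, at 0.0523 and Tmco3 at 0.0528. Tmco3 ran at 50.2, 25.0 and 37.7 CPM in CBM and 46.8, 38.2 and 27.2 CPM in EBM. Nearest to Runx1t1 were the histone gene Hist1h4d at 0.0815, the mast cell protease Mcpt1 at 0.0908 and Arhgap6 at 0.0994.

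The proteins that work with the members were read from 4 lists. Of the partners of Lmo2 and the E-proteins, 14 of 18 were tested, and 0 passed the adjusted threshold in either direction, with 1 at an unadjusted p under 0.05 (7.91% of all genes), 6 higher and 8 lower and a median of -0.03 on the log2 scale. The smallest p belonged to Id1, an inhibitor of E-proteins, with 9.005 CPM in CBM and 4.54 CPM in EBM and a fold change of -0.98 ± 0.29 (log2, SE; edgeR adjusted p = 0.446). CBM held 215, 113 and 178 counts of Id1 and EBM 97, 76 and 63, which did not overlap when scaled to CPM. Tal1 (-0.33) and Tcf12 (0.18) followed, and their regions did not overlap either. In this list 1 gene was higher and 2 were lower in EBM without overlap, where 15.1% of all genes did not overlap. Of the ETO co-repressor complex 15 of 17 were tested, with 0 called, 1 at an unadjusted p under 0.05 (7.91% of all genes) and a median of 0.02. The smallest p were those of the scaffold Sin3a (0.29 ± 0.08, edgeR adjusted p = 0.427), Prkar2a (-0.19) and Hdac2 (-0.10). Sin3a, higher in EBM, was the only 1 of these 15 genes whose regions did not overlap, against 15.1% of all genes.

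The cofactors and modifiers of RUNX proteins had 24 of 27 genes tested, none called by edgeR after adjustment and 0 at an unadjusted p under 0.05, with a median of 0.02. Bmi1 (-0.25), Kmt2a (-0.19) and Ep300 (-0.17) had the smallest p, and each was lower in EBM without overlap of the regions. With 0 genes higher without overlap, this made 3 of 24 in either direction, where 15.1% of all genes did not overlap. Among genes known as targets of RUNX1 or AML1-ETO, 28 of 36 were tested, 0 passed the adjusted threshold and 3 had an unadjusted p under 0.05, where 7.91% of all genes did. The smallest p were those of Nfe2, an erythroid and megakaryocyte factor, at -0.51 ± 0.12 (edgeR adjusted p = 0.330), Mcl1, a survival gene of the BCL2 family, at 0.37 ± 0.10 (edgeR adjusted p = 0.404), and Id1, which is on 2 of the lists. In this list 23 genes had a positive and 5 a negative difference, beside 6726 and 6626 over all genes tested. The median was 0.21 beside 0.00 over all genes. Over the 6 libraries the tested genes of this list had a median range of 2.32 on the log2 scale, against 0.63 over all genes. Signs of genes that move together between libraries are not independent, and no set test was run. Several of the listed targets are granule genes of neutrophils, such as Mpo with 29, 283 and 63 counts in CBM and 384, 643 and 86 in EBM. The log2 differences of Mpo (1.67), Elane (1.51), Prtn3 (1.15) and Ctsg (1.56) were all positive, with regions that overlapped. None of these genes is among the neutrophil markers. The neutrophil markers moved between the libraries as given above. Of the 7 neutrophil markers tested, 4 had a positive and 3 a negative difference, with a median of 0.00. The part of neutrophil genes in the target list's median was not tested.

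On the genome, 14 annotated genes overlap 7 of the members by their whole spans, 10 of them on the opposite strand. Whether exons overlap was not checked. Since the strand setting of the counting is not given, reads of such a pair are uncertain where exons are shared. At no more than 10 counts in each library were 8 of them, n-R5s27, Runx2os1, Runx2os2 and Runx2os3 at Runx2, Gm16224 at Runx3, Gm24629 and Gm22063 at Cbfb, and Gm20388 at Cbfa2t3. Gm26626, opposite Runx1, had 39 to 174 counts against 5767 or more for Runx1. Supt3 opposite Runx2 had 85 to 163 counts where Runx2 had 120 to 225, so any shared reads would weigh most on Runx2. Nfix, opposite Lyl1, had 252 to 423 counts, 4931422A03Rik, opposite Lmo2, had 93 to 318, and Gm15899 and Gm10612 at Cbfa2t3 had at most 64 and 25.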

How the data were processed

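The authors prepared directional RNA-seq libraries from rRNA-depleted RNA of AE9a leukemia cells and deposited 1 table of raw counts per gene, without normalization, for the 6 libraries (3 CBM, 3 EBM). The submitters' processing notes name HISAT2 2.0.5 and the build mm10. The counting tool and its strand setting are not given in the sources used here. Coordinates of all 10 members equal those of GENCODE M21 (GRCm38), and their deposited gene length equals the union of annotated exons.

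Libraries were grouped by the labels' marrow region and held 16436526 to 19462964 counts on genes. A floor of 3 counts was 0.149 to 0.193 CPM, which covers counting error only, since PCR copies are not independent molecules. No 2 libraries of a region agreed within sampling noise (chi-square per degree of freedom at least 11.9). In edgeR 4.0.16 (R 4.3.3), filterByExpr removed low genes, TMM scaled the libraries, and the quasi-likelihood F-test was run across all 13352 kept genes (glmQLFit, glmQLFTest), without a block, with Benjamini-Hochberg adjustment at 0.05. Log2 CPM used a prior count of 2. RPKM was CPM per kilobase of the deposited gene length, compared between members by an exact sign-flip permutation test. The pipeline was tested on simulated data. In the simulated counts each gene was drawn independently, without the split between libraries that the first principal component shows here. Promoter sequences were those of RefSeq (GRCm38.p6), and transcripts those of GENCODE M21. Tle5 was matched in the table by its synonym Aes.

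The members and gene lists were chosen with earlier results of these data known. All members were named in full, in each list the 3 genes with the smallest p where none passed, for Runx1 and Runx1t1 the 3 genes nearest in pattern, and the genes that overlap a member. Of the 3 nearest to Runx1, 1 is not reported here. Mpo, Elane, Prtn3, Ctsg and single lineage markers were named after their values were seen. Alternatives were DESeq2 1.42.0, limma-voom (limma 3.58.1), edgeR with RLE factors, a looser and a stricter minimum count, a block for the replicate number and each library left out. A covariate and a fit without both libraries CBM 2 and EBM 3 were added after seeing the data. Protein sequences were not used here.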

Additional observations from a re-analysis of the deposited data

How the results depend on the processing

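In none of the 140 alternative values of the members was an adjusted p under 0.05. The smallest, 0.136, was for Lyl1 (-0.52 on the log2 scale) without CBM 2 and EBM 3. The direction held in 127 values and was reversed in 13. Runx1 was 0.0025 with limma-voom, and Cbfb was -0.0033 with the first principal component as a covariate and -0.031 without CBM 2 and EBM 3. With each library left out in turn, Runx1 ran from -0.28 to 0.29, Runx3 from -0.42 to 0.40, Cbfb from -0.21 to 0.34, Lmo2 from -0.41 to 0.06, Runx1t1 from -0.03 to 0.43 and Cbfa2t3 from -0.34 to 0.03. The reversed values within this were 0.29 and 0.12 (Runx1), 0.40 and 0.26 (Runx3), -0.21 and -0.19 (Cbfb), 0.056 (Lmo2), -0.032 (Runx1t1) and 0.033 and 0.0039 (Cbfa2t3). Runx2, Cbfa2t2, Lyl1 and Erg kept their direction in all 14 settings, though without 1 library Runx2 ran from -0.34 to -0.01, Lyl1 from -0.44 to -0.17 and Erg from 0.49 to 1.27, and Erg was 0.54 with the covariate. The cause of the reversals was not tested. Over all genes, edgeR called 0 (1056 at an unadjusted p under 0.05), DESeq2 175 (131 higher, 44 lower), edgeR on every gene with a count 40, edgeR with the component as covariate 249 and edgeR without CBM 2 and EBM 3 13, none of them members. With the replicate block, edgeR called 0 genes (1203 at an unadjusted p under 0.05) and changed the direction of no member. Same-numbered libraries deviated together with r of 0.68, -0.20 and 0.20, so the numbers were not taken as pairs. The difference between regions of the mean log2 ratio of Runx1t1 to Runx1, 0.23, ran from 0.10 to 0.49 with a library left out. The 95% intervals of the members limit what 3 libraries a region can show, most for Erg and least for Cbfa2t2.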
